A study of Mus musculus with 24 samples.

Results

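DNA replication and nucleotide synthesis genes were followed in mouse bone marrow-derived macrophages as 41 genes listed by symbol: the helicase, licensing, clamp, polymerase and ligase genes of the replication fork, the enzymes that make deoxynucleotides, and 4 genes of chromatin assembly, cohesion and DNA methylation maintenance. The array named probe sets for 40 of them, out of 18193 named genes in all. No probe set was named for Chaf1a, so its expression was not analysed here and it enters with its promoter alone. These 40 genes had 88 probe sets, of which 87 passed the filter on low ratios, and all 40 genes were among the 17737 genes tested. A gene's value is the mean over its probe sets of the log2 deposited ratio, and a ratio of 1 is, for most probe sets, the median of that probe set over the arrays. Ratios therefore compare arrays for 1 gene, and levels of different genes cannot be set against each other.

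Marrow came from 6 mice of the C57Bl/6 strain, and M-CSF, on which macrophages depend for growth and survival, was present at 20 ng/ml through the 10 days of every culture. Mice 1, 2 and 3 were Pparg+/- LysCre, with 1 intact and 1 null allele of the nuclear receptor gene Pparg, and mice 4, 5 and 6 were Pparg fl/- LysCre, with a floxed and a null allele. All 6 mice carried LysCre, which drives Cre recombinase from the lysozyme gene of myeloid cells, so that Pparg+/- cells were heterozygous and not wild-type controls, and cells without lysozyme expression would keep the floxed allele. Each mouse gave 4 cultures: control or 20 ng/ml IL-4, a type 2 cytokine that drives alternative activation, each with vehicle (DMSO:ethanol) or 1 µM rosiglitazone (RSG), a synthetic agonist of PPARγ. This gave 24 arrays in 8 groups of 3, and values below run in the order of mice 1, 2 and 3 or 4, 5 and 6.

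Replication starts when the origin recognition complex, Cdc6 and Cdt1 load the MCM ring onto DNA, and Cdc45 and the GINS complex then turn the ring into an active helicase. Primase and the polymerases copy the strands, held to DNA by the sliding clamp Pcna that the RFC complex loads, while ribonucleotide reductase, thymidine kinase and thymidylate synthase supply the precursors. Most of these genes are transcribed around S phase under E2F transcription factors, and macrophages grown in M-CSF divide during differentiation before they leave the cell cycle.

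As a check of the labels, the Pparg ratio was 0.51 to 0.579 and 0.362 to 0.547 in Pparg+/- control vehicle and RSG cultures and 0.578 to 1.09 and 0.607 to 1.12 in those of Pparg fl/- mice, and with IL-4 it was 1.46 to 2.02 and 0.895 to 1.09 against 1.86 to 3.16 and 1.93 to 2.81. The Pparg ratio was thus not lower in Pparg fl/- cells. The sources used here do not place the probes against the floxed part, so the Pparg values check nothing about the deletion. Fabp4, a target gene of PPARγ, was lower in Pparg fl/- than in Pparg+/- cells under RSG, with ratios of 1.04 to 1.29 against 1.44 to 1.8 in control and 0.559 to 0.848 against 1.05 to 1.52 in IL-4 cultures, and the groups did not overlap. In vehicle it was 0.933 to 1.17 against 1.00 to 1.21 in control and 0.368 to 0.441 against 0.535 to 0.691 in IL-4 cultures. The genotypes were thus also apart in IL-4 vehicle cultures. In Pparg fl/- IL-4 cultures Fabp4 was still higher under RSG than in vehicle, without overlap. The genotypes below are those of the labels.

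Promoters of the genes are shown because genes of this group are known E2F targets, and because genes with and without E2F-type letters fell. RefSeq promoters (GRCm38.p6, 250 bases before to 50 after the start) were matched by symbol for 33 of the 41 genes. The letters searched on both strands were TTTCCCGC, TTTCGCGC, TTTGCCGC and TTTGGCGC for the E2F-type site and CCAAT for the CCAAT box. The 170 bases before the start are printed 5′ to 3′ on the strand of the gene for 3 genes with an E2F-type match that fell with IL-4 (Mcm6, Mcm5 and Cdc6), for Rrm2, which fell further without such a match, and for Pcna, which was never called; capitals mark E2F-type and CCAAT matches on either strand, and overlapping matches run together in Mcm6 and Mcm5.
Mcm6, chr1:128359706-128359875, minus strand: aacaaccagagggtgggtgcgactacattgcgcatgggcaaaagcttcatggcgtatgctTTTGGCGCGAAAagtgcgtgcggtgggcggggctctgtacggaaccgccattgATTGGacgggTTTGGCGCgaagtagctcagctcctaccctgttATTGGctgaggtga
Mcm5, chr8:75109339-75109508, plus strand: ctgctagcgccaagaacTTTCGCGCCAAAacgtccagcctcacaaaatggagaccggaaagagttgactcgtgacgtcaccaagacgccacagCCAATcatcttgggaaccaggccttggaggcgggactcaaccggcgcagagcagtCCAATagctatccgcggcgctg
Cdc6, chr11:98907981-98908150, plus strand: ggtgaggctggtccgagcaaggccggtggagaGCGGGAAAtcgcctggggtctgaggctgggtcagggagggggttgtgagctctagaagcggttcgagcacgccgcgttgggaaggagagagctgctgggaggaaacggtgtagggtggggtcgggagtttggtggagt
Rrm2, chr12:24708084-24708253, plus strand: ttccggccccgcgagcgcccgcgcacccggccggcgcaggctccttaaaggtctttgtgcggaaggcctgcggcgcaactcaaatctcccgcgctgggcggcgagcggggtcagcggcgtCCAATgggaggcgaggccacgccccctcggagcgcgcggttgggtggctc
Pcna, chr2:132253181-132253350, minus strand: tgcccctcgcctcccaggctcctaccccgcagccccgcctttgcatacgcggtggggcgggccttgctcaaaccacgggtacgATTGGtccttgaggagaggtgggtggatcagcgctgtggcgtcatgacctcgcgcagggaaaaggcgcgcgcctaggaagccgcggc

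An E2F-type match lay in 12 of the 33 promoters, 36.4%, against 626 of 27025 promoters of the same length, 2.32%. A CCAAT box lay in 20 of the 33, 60.6%, against 37.9% of all. Among genes called down with IL-4 in all 4 comparisons below, 6 of the 14 with a promoter held an E2F-type match; among those called in 1 to 3 comparisons it was 5 of 14, and among those called in none 1 of 4, which was Orc1. Chaf1a, with a promoter but no named probe set, is among the 33 and in none of these groups. Rrm2, Uhrf1 and Tk1, with some of the deepest falls, had no E2F-type match in this window. Median GC content was 57.7% in the 33 promoters and 52.7% in all promoters, and its part in the number of matches was not tested.

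On array level the IL-4 and control cultures formed separate ranges. The median ratio over the 40 genes was 1.23, 1.81 and 1.48 in the vehicle controls of mice 1 to 3 and 2.50, 2.25 and 1.47 in those of mice 4 to 6, and it was 1.28, 1.72 and 1.24 and then 2.37, 2.10 and 1.05 under RSG. With IL-4 it lay between 0.632 and 0.821 on all 12 arrays. The control arrays thus differed from each other more than the IL-4 arrays did, and mouse 6 under RSG was the control closest to the IL-4 range, with 23 of the 40 genes above a ratio of 1. For 20 of the 40 genes, and for 4.96% of all genes tested, every control array lay above every IL-4 array.

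**Figure D1:**
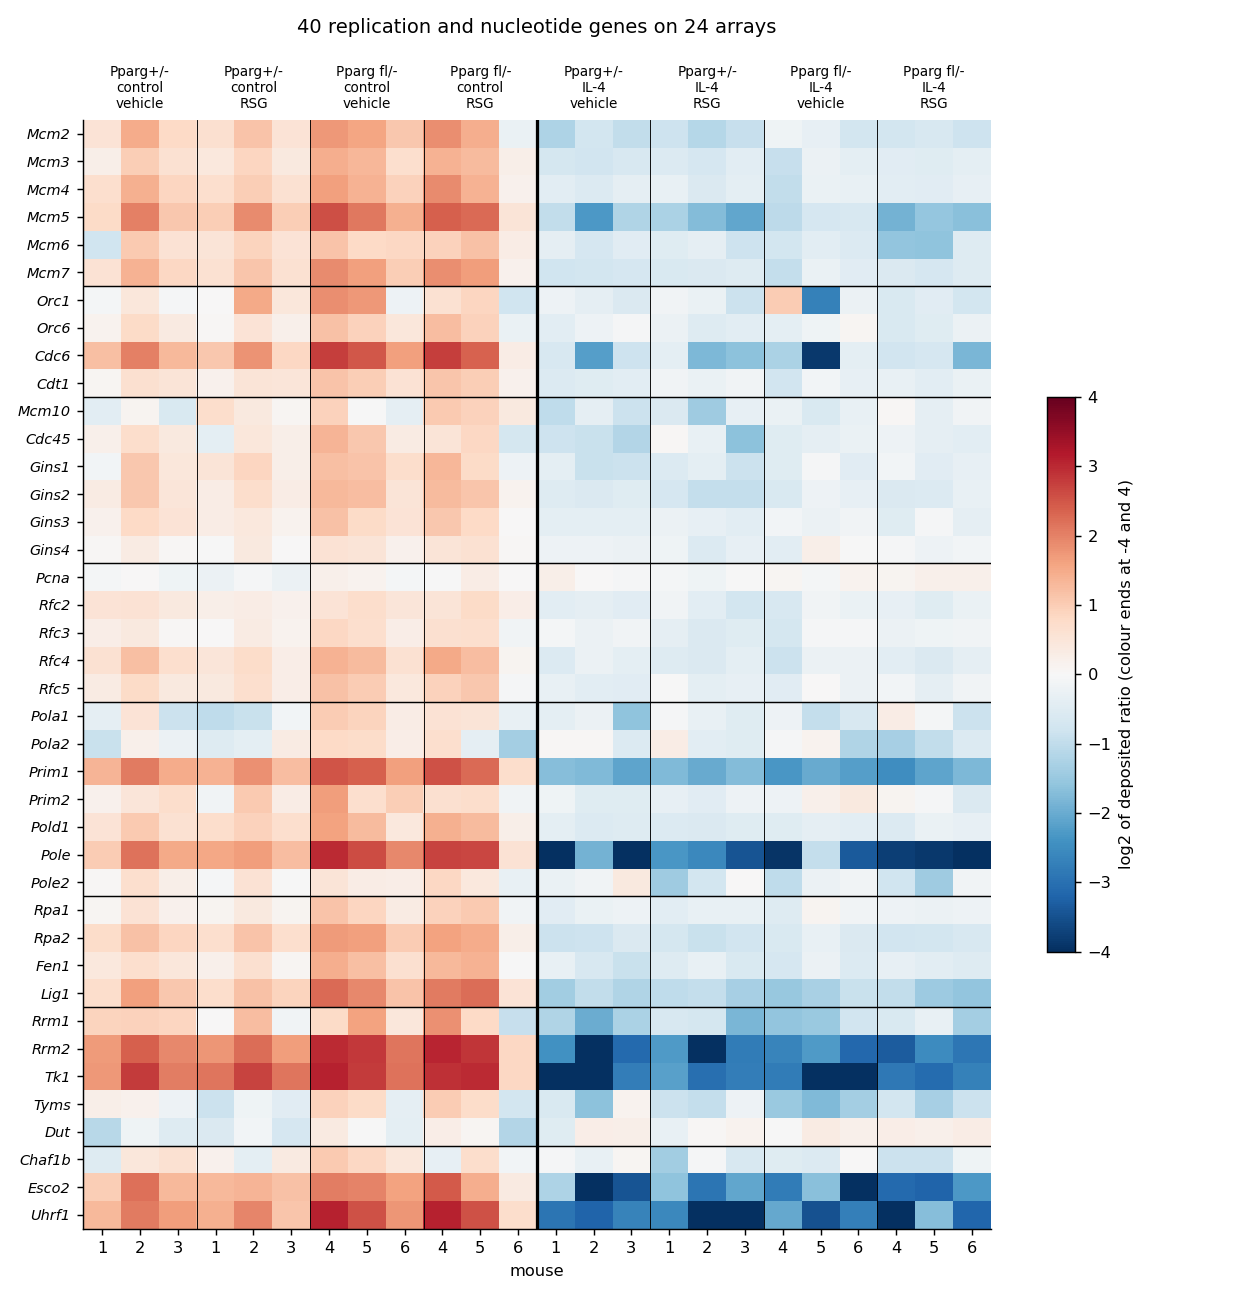
Log2 of the deposited ratio for 40 genes (rows, grouped by role with lines between roles) on 24 arrays (columns, by genotype, culture and mouse); red is above and blue below a ratio of 1. Control columns are mostly red and IL-4 columns mostly blue, the row of Pcna stays pale, and mouse 6 in control RSG medium is the palest control column.

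The first question was whether IL-4 changed these genes, in each genotype and with and without RSG. A gene was called at an adjusted p under 0.05 in limma and a change of at least 1.5-fold. IL-4 lowered 25 of the 40 genes in Pparg+/- vehicle cultures, where 6.84% of all genes tested were called down, and 23 in Pparg+/- RSG cultures, where 6.37% were. In Pparg fl/- cells it lowered 33 genes in vehicle (8.01% of all genes) and 27 under RSG (7.21%). None of the 40 was called up in any of the 4 comparisons, where 8.29%, 7.05%, 8.81% and 7.97% of all genes were, in the same order. The median log2 change over the 40 genes was -1.14, -1.09, -1.50 and -1.31, beside 0.09, 0.11, 0.12 and 0.11 over all genes tested.

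No array was shared between the 4 comparisons, but vehicle and RSG cultures of a genotype came from the same 3 mice. All 4 also shared 1 estimate of the spread, so they are not 4 independent results. Called down in all of them were 19 genes, against 4.27% of all genes tested. A further 5 genes were called in 3 comparisons, 6 in 2 and 5 in 1, and 5 in none: Pcna, Dut, Orc1, Pola2 and Gins4. Paired by mouse, 28 of the 40 genes, and 9.08% of all genes tested, were lower with IL-4 in all 12 pairs of cultures. These pairs came from 6 mice. The median change over the genes ran from -0.48 in mouse 6 under RSG to -1.90 in mouse 4 in vehicle. All 3 IL-4 arrays lay below all 3 control arrays for 31 and 32 genes in Pparg+/- vehicle and RSG cultures and for 35 and 27 in Pparg fl/- cultures, beside 14.1%, 14.4%, 13.4% and 13.6% of all genes tested that were separated in this way and 6.84%, 6.37%, 8.01% and 7.21% that were called down. The Pparg+/- counts changed when a mouse was left out, which also leaves fewer mice per group. Without mouse 2 they were 13 in vehicle and 11 under RSG. The RSG count was 15 without mouse 1 and 13 without mouse 3, and the vehicle count was 26 and 18. With the t-test of the methods the counts were 18, 20, 10 and 5 in the order above, so that those of Pparg fl/- cells were far lower. The share of all genes called by this t-test is not given here. The lower counts are thus not shown to be particular to these genes.

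Several lists of cell type markers also changed in the IL-4 cultures. Of all genes tested, 6.84%, 6.37%, 8.01% and 7.21% were called down there and 8.29%, 7.05%, 8.81% and 7.97% up, in the order above. Neutrophil markers fell, 6, 7, 6 and 6 of 7 in the same order, and their mean log2 ratio lay between 0.73 and 1.78 on control and between -4.18 and -2.96 on IL-4 arrays. Myeloid progenitor markers fell for 3, 2, 4 and 3 of 7 (Cd34 in all 4 comparisons), with a mean between -0.22 and 1.15 on control and between -1.34 and 0.12 on IL-4 arrays, and stromal markers for 3, 4, 5 and 4 of 5, with 0.08 to 2.66 against -2.58 to -0.66. Of the 7 macrophage markers 3, 2, 3 and 2 fell and 1, 0, 1 and 1 rose, with a mean between 0.00 and 0.45 on control and between -0.42 and 0.09 on IL-4 arrays. Cd14 and Fcgr1 fell in all 4 comparisons, Mertk fell in both vehicle comparisons, by 0.87 and 0.71, and Itgam rose in all but Pparg+/- RSG cultures, while Csf1r, Adgre1 and Cd68 were not called. Mast cell and basophil markers went the other way in Pparg+/- cells. Their mean ran from -1.76 to -0.92 on control and from -0.35 to 0.33 on IL-4 vehicle arrays. Under RSG it ran from -1.33 to -0.78 and from 0.30 to 1.37. In Pparg fl/- cells their control and IL-4 ranges overlapped, and over all arrays so did those of erythroid, T and NK cell and B cell markers. Ratios do not show which markers are near background. The part of these cells in the fall of the replication genes was not tested, and in bulk RNA fewer dividing cells and less RNA per cell cannot be told apart.

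**Figure D2:**
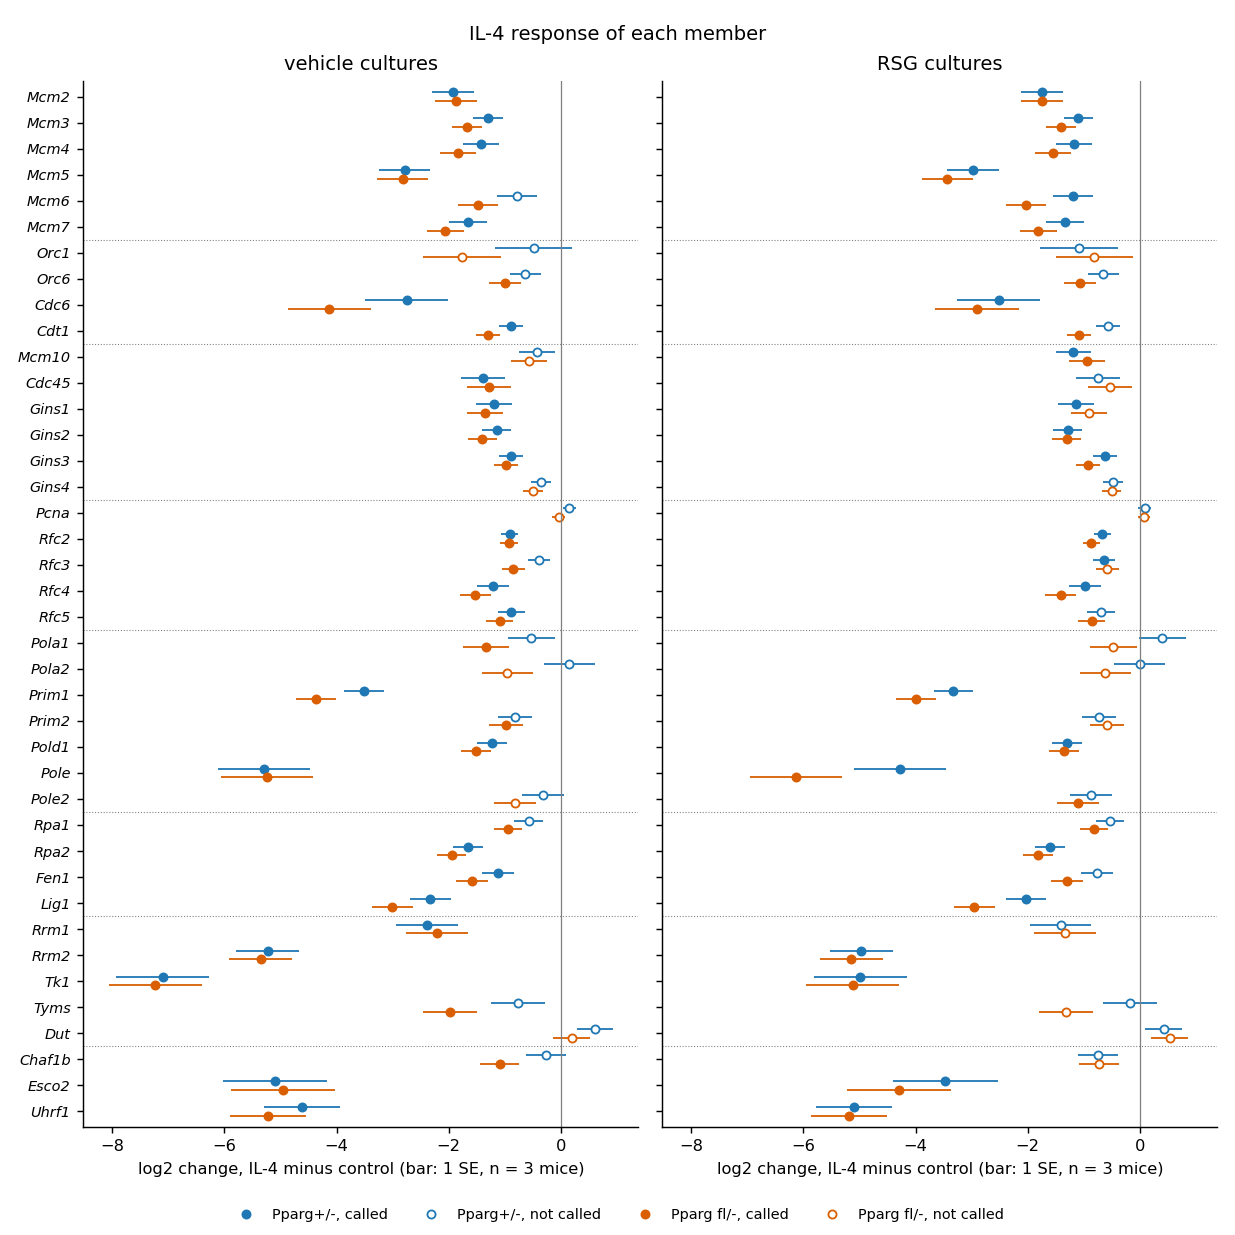
Log2 change with IL-4 (x axis) of 40 genes (y axis, by role) in vehicle (left) and RSG (right) cultures of both genotypes; points are limma estimates, bars 1 SE with 3 mice per group, and filled points are called. Nearly all points lie left of 0, those of Tk1, Pole, Rrm2, Uhrf1 and Esco2 farthest, and those of Pcna and Dut lie at or right of 0 or close to it. Right of 0 also lie Pola1 in RSG and Pola2 in vehicle cultures of Pparg+/- mice.

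The 6 genes of the MCM ring, the helicase that opens the double strand, fell together. All 6 were called down in 3 comparisons and 5 in Pparg+/- vehicle cultures, with a median change of -1.54 there and -1.85 in Pparg fl/- vehicle cultures. Mcm5 fell furthest. Mcm5 in Pparg+/- mice had vehicle ratios of 1.71, 4.04 and 2.12 in control and 0.502, 0.202 and 0.439 in IL-4 cultures, and RSG ratios of 1.99, 3.69 and 1.99 in control and 0.414, 0.302 and 0.237 in IL-4 cultures. Mcm5 in Pparg fl/- mice had vehicle ratios of 5.95, 4.36 and 2.69 in control and 0.486, 0.625 and 0.646 in IL-4 cultures, and RSG ratios of 5.3, 4.85 and 1.43 in control and 0.27, 0.345 and 0.314 in IL-4 cultures. No control array reached the IL-4 range in any mouse. Mcm5 fell by 2.79 ± 0.46 on the log2 scale in Pparg+/- vehicle cultures (6.9-fold, adjusted p = 0.00018) and by 3.43 ± 0.46 in Pparg fl/- RSG cultures (10.8-fold, adjusted p = 1.9e-05).

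Mcm6 was the exception in Pparg+/- vehicle cultures. Mcm6 in Pparg+/- mice gave vehicle ratios of 0.581, 2.06 and 1.51 in control and 0.774, 0.625 and 0.724 in IL-4 cultures, and RSG ratios of 1.43, 1.85 and 1.45 in control and 0.718, 0.781 and 0.562 in IL-4 cultures. Mcm6 in Pparg fl/- mice gave vehicle ratios of 2.22, 1.72 and 1.76 in control and 0.605, 0.746 and 0.685 in IL-4 cultures, and RSG ratios of 1.89, 2.24 and 1.24 in control and 0.332, 0.331 and 0.705 in IL-4 cultures. The control vehicle value of mouse 1 lay below all 3 IL-4 values of its group, whereas the groups of the other comparisons did not overlap. Its log2 change was -0.79 ± 0.35 (adjusted p = 0.14) in Pparg+/- vehicle cultures, and it fell by 2.02 ± 0.35 (adjusted p = 0.00033) in Pparg fl/- RSG cultures. Mcm6 had 3 probe sets: each of a pair was called down in all 4 comparisons and the third in none, with changes between -1.76 and 1.74. Mcm2, Mcm3, Mcm4 and Mcm7 were called in all 4 comparisons, with falls from 1.10 (Mcm3, Pparg+/- RSG) to 2.06 (Mcm7, Pparg fl/- vehicle).

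Of the 4 origin recognition and licensing genes, 2, 1, 3 and 3 were called down in the order above. Cdc6, an ATPase that loads the MCM ring, fell by 2.75 ± 0.74 (6.72-fold, adjusted p = 0.011) in Pparg+/- vehicle cultures and by 4.13 ± 0.74 (17.5-fold, adjusted p = 0.00036) in Pparg fl/- vehicle cultures, and was called in all 4 comparisons. Cdt1, its loading partner, changed less and with less spread. Cdt1 in Pparg+/- mice had vehicle ratios of 1.05, 1.57 and 1.42 in control and 0.684, 0.715 and 0.749 in IL-4 cultures, and RSG ratios of 1.12, 1.42 and 1.4 in control and 0.897, 0.835 and 0.905 in IL-4 cultures. Cdt1 in Pparg fl/- mice had vehicle ratios of 2.19, 1.99 and 1.49 in control and 0.591, 0.919 and 0.795 in IL-4 cultures, and RSG ratios of 2.17, 1.99 and 1.13 in control and 0.817, 0.744 and 0.83 in IL-4 cultures. Every control value exceeded every IL-4 value. Cdt1 fell by 0.90 ± 0.22 (adjusted p = 0.0051) in Pparg+/- vehicle cultures and was called in 3 comparisons, with a change of -0.57 ± 0.22 (adjusted p = 0.077) in Pparg+/- RSG cultures.

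Orc1, the largest subunit of the origin recognition complex, was called in no comparison. Orc1 in Pparg+/- mice gave vehicle ratios of 0.937, 1.37 and 0.966 in control and 0.863, 0.78 and 0.671 in IL-4 cultures, and RSG ratios of 1.02, 2.83 and 1.37 in control and 0.901, 0.83 and 0.555 in IL-4 cultures. Orc1 in Pparg fl/- mice gave vehicle ratios of 3.59, 3.34 and 0.866 in control and 2.02, 0.154 and 0.845 in IL-4 cultures, and RSG ratios of 1.51, 1.8 and 0.576 in control and 0.662, 0.73 and 0.599 in IL-4 cultures. In vehicle the IL-4 value of mouse 4 lay above the control value of mouse 6, so that the groups overlapped there. Mouse 5 was very low with IL-4. The largest change of Orc1 was -1.77 ± 0.69 (adjusted p = 0.075) in Pparg fl/- vehicle cultures. Of its probe sets, 1 was called down in 1 comparison and the other in none. Orc6, another subunit, fell by 1.00 ± 0.28 and 1.07 ± 0.28 in Pparg fl/- vehicle and RSG cultures (adjusted p = 0.014 and 0.0093) and had changes of -0.63 and -0.65 in Pparg+/- cells, both at an adjusted p of 0.13.

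**Figure D3:**
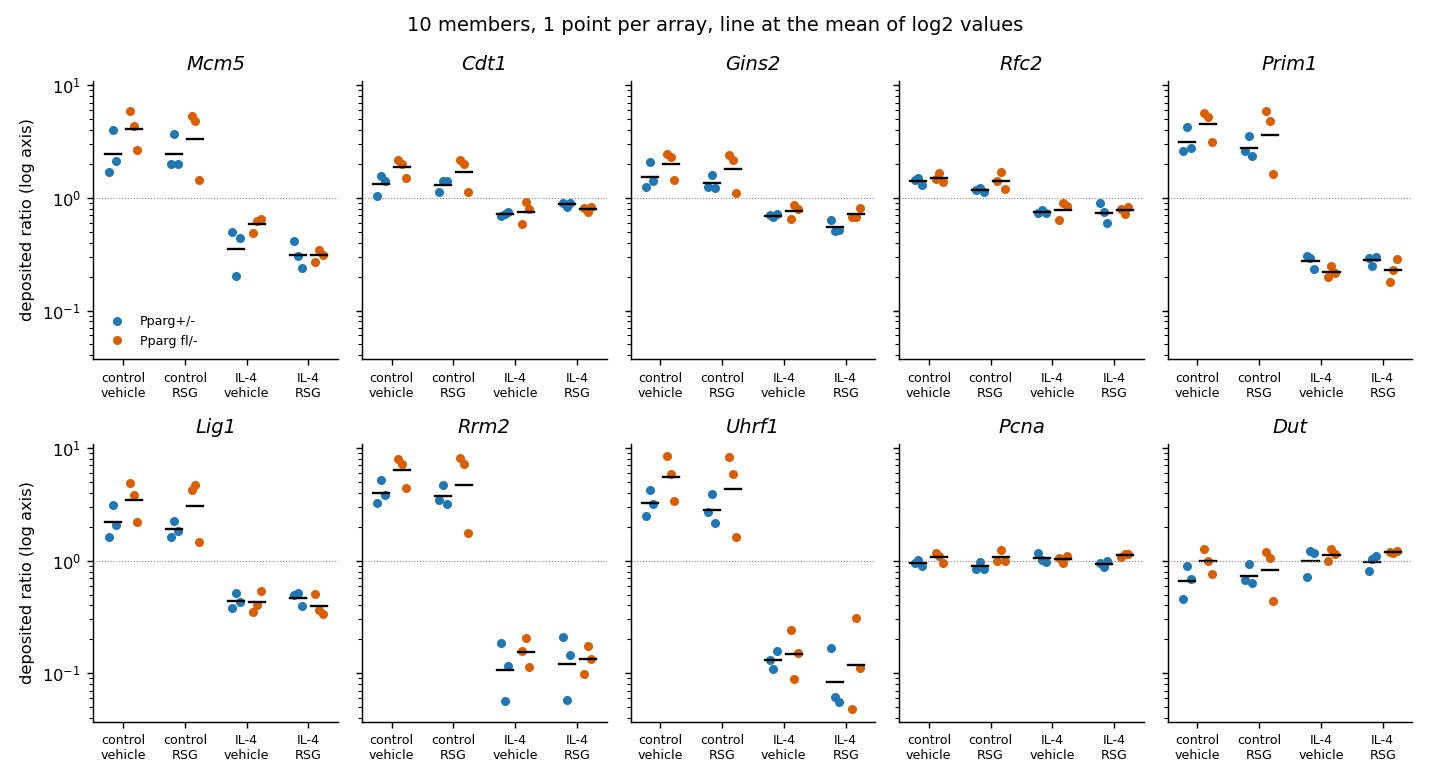
Deposited ratio (log y axis) of 10 genes in control and IL-4 cultures with vehicle or RSG; each point is 1 array, blue for Pparg+/- and orange for Pparg fl/-, and black lines are means of the 3 log2 values. Rrm2, Uhrf1 and Prim1 drop furthest with IL-4, Cdt1 and Rfc2 less, Pcna stays near a ratio of 1, and the control and IL-4 values of Dut overlap.

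Helicase activation was represented by Cdc45, the 4 GINS genes and Mcm10. Gins2 fell evenly. Gins2 in Pparg+/- mice had vehicle ratios of 1.24, 2.1 and 1.4 in control and 0.703, 0.67 and 0.713 in IL-4 cultures, and RSG ratios of 1.24, 1.61 and 1.22 in control and 0.632, 0.513 and 0.52 in IL-4 cultures. Gins2 in Pparg fl/- mice had vehicle ratios of 2.46, 2.33 and 1.44 in control and 0.65, 0.864 and 0.804 in IL-4 cultures, and RSG ratios of 2.42, 2.16 and 1.1 in control and 0.677, 0.682 and 0.821 in IL-4 cultures. All control values lay above all IL-4 values. Gins2 fell by 1.15 ± 0.26 (2.21-fold, adjusted p = 0.003) in Pparg+/- vehicle and by 1.40 ± 0.26 (2.64-fold, adjusted p = 0.00047) in Pparg fl/- vehicle cultures. Gins3 was also called in all 4 comparisons, with falls from 0.63 to 0.98, and Gins1 in 3, with a change of -0.91 ± 0.32 (adjusted p = 0.051) in Pparg fl/- RSG cultures. For Gins1, 1 probe set was called down in all 4 comparisons and the other in none. Gins4 was lower with IL-4 in all 12 pairs, but its changes between groups were under 1.5-fold and ran from -0.51 to -0.35, with adjusted p = 0.047 and 0.046 in Pparg fl/- RSG and vehicle cultures.

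Mcm10, which binds the assembled helicase, depended on the probe set. Mcm10 in Pparg+/- mice gave vehicle ratios of 0.741, 1.07 and 0.656 in control and 0.5, 0.777 and 0.551 in IL-4 cultures, and RSG ratios of 1.64, 1.32 and 1.06 in control and 0.663, 0.371 and 0.797 in IL-4 cultures. Mcm10 in Pparg fl/- mice gave vehicle ratios of 1.9, 0.983 and 0.78 in control and 0.827, 0.663 and 0.821 in IL-4 cultures, and RSG ratios of 2.07, 1.89 and 1.32 in control and 1.04, 0.783 and 0.902 in IL-4 cultures. In vehicle the control and IL-4 values overlapped, and under RSG they did not. Mcm10 fell by 1.19 ± 0.32 (adjusted p = 0.012) in Pparg+/- RSG and by 0.94 ± 0.32 (adjusted p = 0.044) in Pparg fl/- RSG cultures, with changes of -0.43 and -0.56 in vehicle (adjusted p = 0.41 and 0.24). Of its 3 probe sets 1 was called down in all 4 comparisons, with changes from -3.11 to -2.38, and the others in none. Cdc45, the partner of the MCM ring in the helicase, was called down in vehicle (-1.38 and -1.28) and not under RSG (-0.74 and -0.53, adjusted p = 0.22 and 0.41). This too depended on the probe set: 1 of Cdc45 was called down in 3 comparisons, with changes from -2.48 to -1.126, and the other in none, with -1.577 to 0.493. The difference between RSG and vehicle responses was called for neither gene.

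The sliding clamp and its loader parted. Rfc2, a subunit of the clamp loader, fell by little but evenly. Rfc2 in Pparg+/- mice had vehicle ratios of 1.45, 1.51 and 1.31 in control and 0.742, 0.784 and 0.737 in IL-4 cultures, and RSG ratios of 1.18, 1.23 and 1.12 in control and 0.909, 0.749 and 0.597 in IL-4 cultures. Rfc2 in Pparg fl/- mice had vehicle ratios of 1.47, 1.65 and 1.38 in control and 0.641, 0.91 and 0.84 in IL-4 cultures, and RSG ratios of 1.42, 1.7 and 1.2 in control and 0.801, 0.716 and 0.833 in IL-4 cultures. No control value fell as low as the IL-4 values. Rfc2 fell by 0.92 ± 0.15 (1.89-fold, adjusted p = 2e-04) and by 0.93 ± 0.15 (1.9-fold, adjusted p = 0.00016) in vehicle cultures of Pparg+/- and Pparg fl/- mice. Rfc4 was called in all 4 comparisons with falls of up to 1.52, Rfc5 in 3, missing in Pparg+/- RSG cultures (-0.69, adjusted p = 0.056), and Rfc3 in 2, with -0.39 (adjusted p = 0.21) in Pparg+/- vehicle and -0.58 (adjusted p = 0.05) in Pparg fl/- RSG cultures.

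Pcna, the clamp itself and a common marker of proliferating cells, did not follow them. Pcna in Pparg+/- mice gave vehicle ratios of 0.945, 1.01 and 0.888 in control and 1.17, 1.02 and 0.969 in IL-4 cultures, and RSG ratios of 0.846, 0.978 and 0.844 in control and 0.954, 0.881 and 0.983 in IL-4 cultures. Pcna in Pparg fl/- mice gave vehicle ratios of 1.16, 1.11 and 0.943 in control and 1.05, 0.954 and 1.11 in IL-4 cultures, and RSG ratios of 0.997, 1.23 and 1 in control and 1.07, 1.15 and 1.15 in IL-4 cultures. Control and IL-4 values overlapped throughout, and the whole range of the 24 arrays was 0.844 to 1.23. The changes were 0.15, 0.08, -0.04 and 0.07, each with an SE of 0.11 and adjusted p of 0.41, 0.7, 0.85 and 0.75. Pcna was read by 1 probe set only, so no other probe set bears on it.

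Primase and the polymerases held both deep falls and genes with no call. Prim1, the catalytic subunit of primase, was called in all 4 comparisons on both of its probe sets. Prim1 in Pparg+/- mice had vehicle ratios of 2.59, 4.24 and 2.78 in control and 0.306, 0.292 and 0.233 in IL-4 cultures, and RSG ratios of 2.6, 3.52 and 2.37 in control and 0.293, 0.247 and 0.298 in IL-4 cultures. Prim1 in Pparg fl/- mice had vehicle ratios of 5.66, 5.21 and 3.15 in control and 0.198, 0.246 and 0.217 in IL-4 cultures, and RSG ratios of 5.88, 4.85 and 1.64 in control and 0.178, 0.231 and 0.286 in IL-4 cultures. The lowest control, mouse 6 under RSG, was still far above the highest IL-4 array. Prim1 fell by 3.50 ± 0.35 (11.4-fold, adjusted p = 8.2e-07) in Pparg+/- vehicle and by 4.37 ± 0.35 (20.7-fold, adjusted p = 6.2e-08) in Pparg fl/- vehicle cultures. Pole, the catalytic subunit of the leading strand polymerase, had the largest fall of the role, by 5.29 ± 0.82 in Pparg+/- vehicle (39.1-fold, adjusted p = 9.4e-05) and by 6.14 ± 0.82 in Pparg fl/- RSG cultures (70.4-fold, adjusted p = 1.8e-05), on 1 probe set. Pold1, the catalytic subunit of the lagging strand polymerase, was called in all 4, with falls from 1.22 to 1.51.

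Pola2, the accessory subunit of polymerase alpha, was not called in any comparison. Pola2 in Pparg+/- mice gave vehicle ratios of 0.537, 1.16 and 0.853 in control and 1.02, 1.02 and 0.691 in IL-4 cultures, and RSG ratios of 0.696, 0.757 and 1.25 in control and 1.23, 0.748 and 0.713 in IL-4 cultures. Pola2 in Pparg fl/- mice gave vehicle ratios of 1.72, 1.66 and 1.2 in control and 0.974, 1.11 and 0.431 in IL-4 cultures, and RSG ratios of 1.6, 0.779 and 0.392 in control and 0.399, 0.5 and 0.68 in IL-4 cultures. The values of control and IL-4 cultures were mixed, except in Pparg fl/- vehicle cultures, where all 3 IL-4 values were lower. Its changes were 0.15 and -0.01 in Pparg+/- cells (adjusted p = 0.87 and 1) and -0.96 and -0.62 in Pparg fl/- cells (adjusted p = 0.14 and 0.4). Pola1, Prim2 and Pole2 were each called in 1 comparison: Pola1 and Prim2 fell by 1.34 and 0.98 in Pparg fl/- vehicle cultures (adjusted p = 0.026 and 0.024), and Pole2 by 1.10 in Pparg fl/- RSG cultures (adjusted p = 0.042). In the comparisons that did not call them, changes ran from -0.53 to 0.40 for Pola1, from -0.83 to -0.58 for Prim2 and from -0.88 to -0.33 for Pole2. Probe sets of Prim2 and Pola1 disagreed. Those of Prim2 were called down in 4, 3 and 0 comparisons. For Pola1, 1 probe set was called in 1 comparison, with changes from -1.58 to -1.118, and the other in none, with -1.249 to 1.915.

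Single strand binding and the joining of Okazaki fragments fell in Pparg fl/- cells with all 4 genes. Lig1, the replicative DNA ligase, led. Lig1 in Pparg+/- mice had vehicle ratios of 1.63, 3.11 and 2.09 in control and 0.378, 0.511 and 0.431 in IL-4 cultures, and RSG ratios of 1.63, 2.27 and 1.85 in control and 0.493, 0.513 and 0.396 in IL-4 cultures. Lig1 in Pparg fl/- mice had vehicle ratios of 4.86, 3.8 and 2.19 in control and 0.352, 0.405 and 0.54 in IL-4 cultures, and RSG ratios of 4.23, 4.67 and 1.46 in control and 0.509, 0.363 and 0.335 in IL-4 cultures. Every IL-4 value was below every control value. Lig1 fell by 2.33 ± 0.36 (5.03-fold, adjusted p = 1e-04) in Pparg+/- vehicle and by 3.01 ± 0.36 (8.06-fold, adjusted p = 5e-06) in Pparg fl/- vehicle cultures. Rpa2, a subunit of the single strand binding protein, was called in all 4 with falls from 1.60 to 1.95, and Fen1, the flap endonuclease, in 3, with -0.77 (adjusted p = 0.072) in Pparg+/- RSG cultures. Of the Fen1 probe sets, 1 was called down in all 4 comparisons and the other in 1.

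Rpa1, the largest subunit of the binding protein, passed the threshold in Pparg fl/- and not in Pparg+/- cells. Rpa1 in Pparg+/- mice gave vehicle ratios of 1.05, 1.49 and 1.12 in control and 0.734, 0.824 and 0.872 in IL-4 cultures, and RSG ratios of 1.08, 1.32 and 1.07 in control and 0.749, 0.819 and 0.814 in IL-4 cultures. Rpa1 in Pparg fl/- mice gave vehicle ratios of 2.18, 1.81 and 1.24 in control and 0.706, 1.08 and 0.905 in IL-4 cultures, and RSG ratios of 1.89, 2.09 and 0.911 in control and 0.869, 0.859 and 0.865 in IL-4 cultures. Control values were higher in each mouse, by least in mouse 6 under RSG. It fell by 0.94 ± 0.25 and 0.82 ± 0.25 in Pparg fl/- vehicle and RSG cultures (adjusted p = 0.0094 and 0.024), with -0.58 and -0.54 in Pparg+/- cells (adjusted p = 0.12 and 0.16). The genotype difference of its IL-4 response was not called. Its probe sets differed, 1 called down in 3 comparisons and the other in 1.

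Nucleotide synthesis genes held the largest fall in vehicle, that of Tk1, and also Dut, which was not called. Rrm2, the small subunit of ribonucleotide reductase whose level limits the enzyme in S phase, was called in all 4 comparisons on all 3 of its probe sets. Rrm2 in Pparg+/- mice had vehicle ratios of 3.25, 5.24 and 3.82 in control and 0.187, 0.0572 and 0.116 in IL-4 cultures, and RSG ratios of 3.43, 4.74 and 3.21 in control and 0.208, 0.0573 and 0.144 in IL-4 cultures. Rrm2 in Pparg fl/- mice had vehicle ratios of 7.97, 7.16 and 4.46 in control and 0.159, 0.207 and 0.114 in IL-4 cultures, and RSG ratios of 8.18, 7.23 and 1.76 in control and 0.0989, 0.176 and 0.134 in IL-4 cultures. The 12 IL-4 values were all far below the 12 control values. Rrm2 fell by 5.23 ± 0.56 (37.5-fold, adjusted p = 1.6e-06) in Pparg+/- vehicle and by 5.35 ± 0.56 (40.8-fold, adjusted p = 9.9e-07) in Pparg fl/- vehicle cultures. Rrm1, the large subunit, fell by 2.38 and 2.22 in vehicle (adjusted p = 0.0037 and 0.006) and had changes of -1.42 and -1.33 under RSG (adjusted p = 0.087 and 0.1); each of a pair of its 3 probe sets was called in all 4 comparisons and the third in none.

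Tk1, thymidine kinase of the salvage pathway, fell furthest of all 40 genes in vehicle. Tk1 in Pparg+/- mice had vehicle ratios of 3.32, 6.95 and 4.15 in control and 0.0108, 0.0234 and 0.147 in IL-4 cultures, and RSG ratios of 4.45, 6.56 and 4.39 in control and 0.221, 0.124 and 0.148 in IL-4 cultures. Tk1 in Pparg fl/- mice had vehicle ratios of 8.53, 6.96 and 4.51 in control and 0.144, 0.0225 and 0.0245 in IL-4 cultures, and RSG ratios of 7.61, 7.9 and 1.78 in control and 0.138, 0.119 and 0.155 in IL-4 cultures. With IL-4 the vehicle values of both genotypes were widely spread, whereas those under RSG lay close together. Tk1 fell by 7.10 ± 0.83 (137-fold, adjusted p = 4.3e-06) and 7.23 ± 0.83 (150-fold, adjusted p = 3e-06) in vehicle, and by 4.98 and 5.12 under RSG, on 1 probe set. Most of its vehicle values with IL-4 lay near the lowest ratio of the table, 0.01, so the size of that fold is uncertain.

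Tyms and Dut stood apart from the reductase. Tyms in Pparg+/- mice gave vehicle ratios of 1.18, 1.12 and 0.876 in control and 0.658, 0.321 and 1.1 in IL-4 cultures, and RSG ratios of 0.552, 0.883 and 0.734 in control and 0.551, 0.517 and 0.86 in IL-4 cultures. Tyms in Pparg fl/- mice gave vehicle ratios of 1.91, 1.7 and 0.788 in control and 0.358, 0.295 and 0.393 in IL-4 cultures, and RSG ratios of 2.03, 1.66 and 0.594 in control and 0.6, 0.397 and 0.546 in IL-4 cultures. Tyms, thymidylate synthase, overlapped between control and IL-4 cultures in Pparg+/- mice and under RSG in Pparg fl/- mice, and was apart in Pparg fl/- vehicle cultures. It fell by 1.98 ± 0.48 (adjusted p = 0.0049) in Pparg fl/- vehicle cultures and had changes of -0.77, -0.18 and -1.32 in the others; of its 4 probe sets 1 was called in 2 comparisons and the others in none. Dut, which removes dUTP, had positive changes in all 4 comparisons, between 0.19 and 0.61 with an SE of 0.32, none of them called (lowest adjusted p = 0.22), and was lower with IL-4 in 2 of 12 pairs.

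Chromatin assembly, cohesion and methylation maintenance were read by Chaf1b, Esco2 and Uhrf1. Uhrf1, which brings the maintenance methyltransferase to newly copied DNA, was called in all 4 comparisons on both probe sets. Uhrf1 in Pparg+/- mice had vehicle ratios of 2.48, 4.25 and 3.17 in control and 0.131, 0.109 and 0.158 in IL-4 cultures, and RSG ratios of 2.68, 3.91 and 2.18 in control and 0.168, 0.0617 and 0.0557 in IL-4 cultures. Uhrf1 in Pparg fl/- mice had vehicle ratios of 8.43, 5.83 and 3.4 in control and 0.241, 0.0889 and 0.15 in IL-4 cultures, and RSG ratios of 8.39, 5.84 and 1.62 in control and 0.048, 0.307 and 0.111 in IL-4 cultures. The lowest control value was well above the highest IL-4 value. Uhrf1 fell by 4.62 ± 0.68 (24.6-fold, adjusted p = 5.3e-05) in Pparg+/- vehicle and by 5.22 ± 0.68 (37.3-fold, adjusted p = 1.2e-05) in Pparg fl/- vehicle cultures. Esco2, the acetyltransferase that sets sister chromatid cohesion, fell by 3.47 to 5.09 and was called in all 4. Its probe sets differed: 1 was called in all 4 comparisons, with changes from -7.405 to -5.061, and the other in 1, with -3.871 to -1.187. The first held IL-4 values at the lowest ratio of the table, so the size of the fall is uncertain.

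Chaf1b, a subunit of chromatin assembly factor 1, was weaker. Chaf1b in Pparg+/- mice gave vehicle ratios of 0.7, 1.37 and 1.52 in control and 0.97, 0.816 and 1.05 in IL-4 cultures, and RSG ratios of 1.13, 0.768 and 1.29 in control and 0.384, 0.959 and 0.637 in IL-4 cultures. Chaf1b in Pparg fl/- mice gave vehicle ratios of 2.06, 1.76 and 1.36 in control and 0.717, 0.691 and 1.02 in IL-4 cultures, and RSG ratios of 0.802, 1.64 and 0.92 in control and 0.55, 0.545 and 0.884 in IL-4 cultures. The groups overlapped in Pparg+/- vehicle cultures and were apart in Pparg fl/- vehicle cultures. It fell by 1.09 ± 0.35 (adjusted p = 0.03) in the latter and had changes of -0.27, -0.75 and -0.73 in the others (adjusted p = 0.68, 0.16 and 0.17). Its probe sets disagreed, 1 called down in all 4 comparisons and the other in none.

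Several of the weaker genes thus depended on how probe sets were joined. Of the 40 genes, 8 had 1 probe set and 32 several, and 19 had a called and an uncalled probe set in at least 1 comparison. Tested singly, 52 of the 87 probe sets were called down in Pparg+/- vehicle cultures (5.47% of all 43349 probe sets), 47 in Pparg+/- RSG (5.07%), 62 in Pparg fl/- vehicle (6.60%) and 59 in Pparg fl/- RSG cultures (6.03%), and none was called up. Genes with at least 1 called probe set numbered 29, 28, 34 and 34, and 35 genes had one in some comparison. Pcna, Dut, Gins4, Pola2 and Pole2 had none. Probe sets without a call were often the noisier: the within-group SD was 1.16 for the uncalled set of Mcm6 and 0.371 and 0.385 for the called pair, 1.63 against 0.469 and 0.394 for Rrm1, and 0.919 against 0.344 for Chaf1b, on the log2 scale.

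RSG was compared with vehicle within each genotype and activation state to ask whether the PPARγ agonist moved these genes. None of the 40 was called by limma in any of the 4 comparisons, where 0.0226% of all genes were called in Pparg+/- control, 0.372% in Pparg+/- IL-4, 0% in Pparg fl/- control and 0.00564% in Pparg fl/- IL-4 cultures. At an unadjusted p under 0.05 the counts were 1, 1, 1 and 0, and the t-test of the methods called none. Median changes over the genes were -0.12 and -0.01 in Pparg+/- control and IL-4 cultures and -0.24 and 0.00 in Pparg fl/- cultures. Tk1 had the largest change, 2.26 ± 0.83 (adjusted p = 0.42) in Pparg+/- IL-4 and 1.67 ± 0.83 (adjusted p = 1) in Pparg fl/- IL-4 cultures, with ratios that were higher under RSG in 5 of 6 mice. In Pparg fl/- control cultures 38 of the 40 genes were lower with RSG, none called, and mouse 6 carried much of it, with a median change of -0.62 beside -0.08 in mouse 4 and 0.00 in mouse 5.

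**Figure D4:**
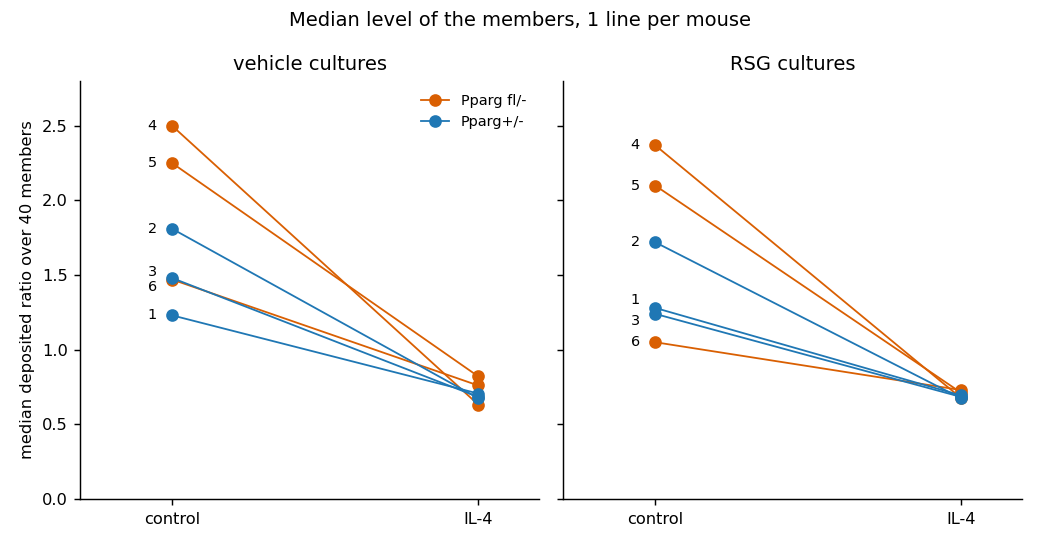
Median deposited ratio over the 40 genes (y axis, from 0) in control and IL-4 cultures with vehicle (left) or RSG (right); each line is 1 mouse, numbered at its control value, blue for Pparg+/- and orange for Pparg fl/-. Controls spread from 1.05 to 2.50, and every mouse ends between 0.632 and 0.821 with IL-4.

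Genotypes, as labelled, were compared in each of the 4 culture conditions. None of the 40 genes was called by limma, where 0%, 0.0113%, 0% and 0.575% of all genes were called in control vehicle, control RSG, IL-4 vehicle and IL-4 RSG cultures. The counts at an unadjusted p under 0.05 were 3, 2, 0 and 1, and the t-test of the methods called none. All 40 genes were nevertheless higher in Pparg fl/- than in Pparg+/- cells in control vehicle cultures, with a median of 0.51 beside 0.08 over all genes, and 36 were in control RSG cultures, with a median of 0.31 beside 0.12. The genes move together from array to array, so 40 like signs are not 40 separate observations: mice 4 and 5 were high and mouse 6, at 1.47, lay below mouse 2, at 1.81. In IL-4 cultures the medians were 0.14 in vehicle and 0.06 under RSG. The 3 genes under an unadjusted p of 0.05 in control vehicle cultures were Pola1, with 0.94 ± 0.42, Prim2, with 0.66 ± 0.30, and Cdt1, with 0.49 ± 0.22 (adjusted p = 0.5, 0.52 and 0.5).

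Whether the IL-4 response itself differed was tested as a difference of differences. No gene of the 40 was called by limma for the genotype difference in vehicle or RSG cultures, where 0% and 0.00564% of all genes were, or for the RSG difference in Pparg+/- or Pparg fl/- cells, where 0.00564% and 0% were. The counts at an unadjusted p under 0.05 were also 0 in all 4, and the t-test was not run for these contrasts. The higher count of calls in Pparg fl/- than in Pparg+/- cells is therefore not shown to be a difference in response: the median difference was -0.34 in vehicle and -0.22 under RSG, with a median SE of 0.465 for a single gene. The smaller fall of Tk1 under RSG came to 2.12 ± 1.18 in Pparg+/- and 2.11 ± 1.18 in Pparg fl/- cells (adjusted p = 1 for each).

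**Figure D5:**
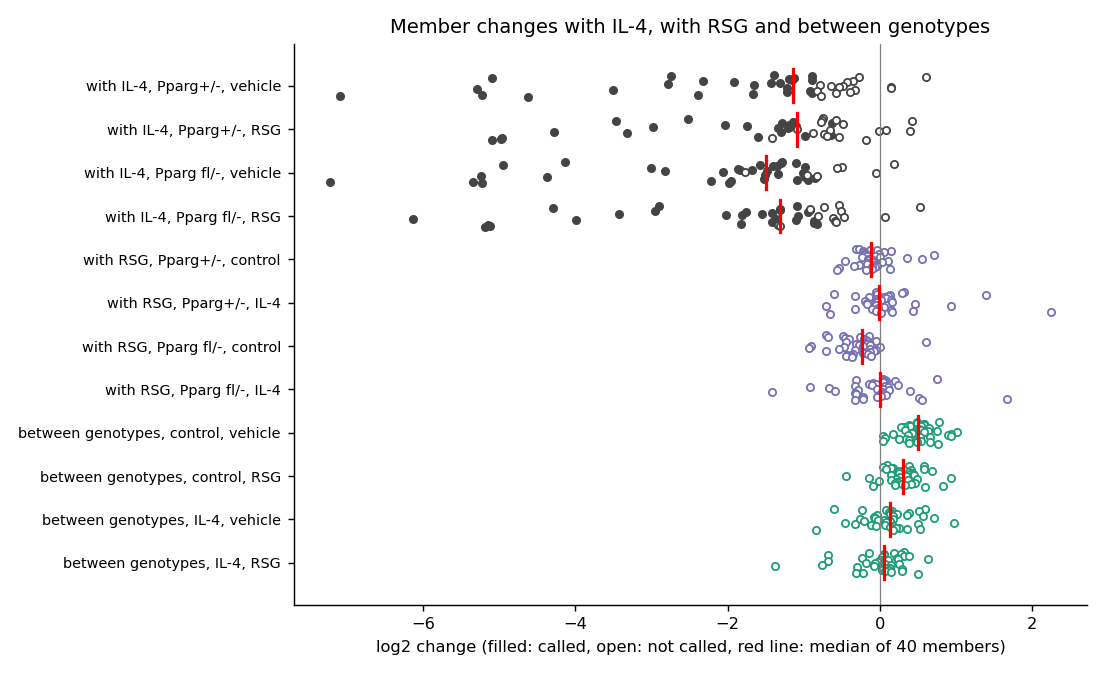
Log2 change (x axis) of each of the 40 genes in 12 comparisons (y axis): IL-4 against control (grey), RSG against vehicle (purple) and Pparg fl/- against Pparg+/- (green); filled points are called, open ones are not, and the red line is the median. Filled points occur in the IL-4 rows alone, and the genotype points of control vehicle cultures all lie right of 0.

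Other genes of the same processes, from lists that exclude the 40, are given for comparison. Of 37 further replication factors, IL-4 lowered 13, 12, 19 and 18 in Pparg+/- vehicle, Pparg+/- RSG, Pparg fl/- vehicle and Pparg fl/- RSG cultures and raised 2, 2, 1 and 1. The shares of all genes were 6.84%, 6.37%, 8.01% and 7.21% down and 8.29%, 7.05%, 8.81% and 7.97% up. The raised counts are too small to read anything from beside these shares. Chtf18, of the alternative clamp loader, fell by 5.13 in Pparg+/- vehicle and 5.49 in Pparg fl/- vehicle cultures, the histone chaperone Asf1b by 2.97 and 3.53, and the checkpoint mediator Clspn by 2.98 and 3.03. Pold4, the smallest subunit of polymerase delta, rose in all 4 comparisons, by 0.81 to 0.97, and Orc4 rose in both Pparg+/- comparisons, by 0.63 and 0.75.

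Of 24 nucleotide enzymes outside the 40, IL-4 lowered 3, 2, 4 and 3 and raised 4, 4, 3 and 4, counts too small to read anything from beside the shares of all genes called down (6.84%, 6.37%, 8.01% and 7.21%) and up (8.29%, 7.05%, 8.81% and 7.97%). Dck, which salvages deoxycytidine, fell in all 4 comparisons, by 1.21 in Pparg+/- RSG and 1.41 in Pparg fl/- RSG cultures, and Shmt1, the cytosolic serine hydroxymethyltransferase, by 1.96 and 1.47 in Pparg+/- and Pparg fl/- vehicle cultures. Mthfd2, a mitochondrial one-carbon enzyme, rose in all 4 comparisons, by 1.10 to 1.53, and Ctps, CTP synthase, rose by 1.57 and 1.10 in Pparg+/- vehicle and RSG cultures. Of 14 E2F and pocket protein genes, 4, 4, 5 and 4 fell, beside the same shares of all genes called down. E2f7 and E2f8, repressor members of the family, fell by 5.51 and 3.66 in Pparg+/- vehicle cultures, and E2f2, an activator, by 4.07. E2f1, another activator, was not called, with changes from -0.65 to -0.01. E2f5 was called up in Pparg fl/- vehicle cultures alone, by 0.62.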

How the data were processed

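Total RNA of 24 macrophage cultures was hybridized to Affymetrix mouse arrays, 1 array per culture. The authors deposited linear ratios, made in GeneSpring from GC-RMA signals scaled first to the 50th percentile within arrays and next to a probe set's own median across arrays. GCOS appears in the processing notes of the submitters without a version. A last division by vehicle controls in the methods is not seen in the values, and 82.2% of probe sets had a median within 0.005 of 1. For the rest, what a ratio of 1 stands for was not determined.

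Ratios were floored at 0.01, the lowest value, and log2 transformed. Of 45101 probe sets, 64 controls were dropped and 43349 at or above the array median on at least 3 arrays were kept. As most ratios are set against a probe set's own median, this filter does not select on expression level. Genes near background may thus remain in the shares of all genes. Symbols came from the platform annotation, updated through gene identifiers of RefSeq GRCm38.p6 (34945 probe sets with 1 symbol, 932 with several and 9160 with none, the last 2 kinds left out), and a gene's value is the mean over its probe sets. limma 3.58.1 in R 4.3.3 fitted 1 mean per group over all 24 arrays with a mean-variance trend, Benjamini-Hochberg adjustment ran over all 17737 genes, and errors are SE with 3 mice per group. The step was tested on simulated data. The number of arrays limits the precision. Python 3.11.15 was used for tables and figures.

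Each mouse gave an array to 4 groups, so the mouse number pairs the samples by the labels. Over all genes tested, residuals of arrays of the same mouse correlated between -0.05 and 0.05 (median 0.01 over 36 pairs). These correlations were low, yet 18 of the 24 arrays correlated best with arrays of their own mouse, among mice of the same genotype. The genes, their roles and the other lists were chosen with earlier results of these data known. Values on every array are given for the gene with the smallest and the largest p of each role in Pparg+/- vehicle cultures, plus Tk1, added after its values were seen; changes are given for each gene that was not called with IL-4 in some comparison, for the largest changes of each role, and for up to 4 genes of other lists and those that moved the opposite way. Alternatives covered scaling, floor, filter, probe sets, threshold, test, the mouse as a block, and each mouse or array left out.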

Additional observations from a re-analysis of the deposited data

How the results depend on the processing

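The direction of the IL-4 change was the same in all 1836 alternative values of the 108 called changes, and 170 of these values missed the threshold, 55 of them under the t-test of the methods, 87 with a mouse left out and 18 at a 2-fold threshold. That t-test called 10 genes in Pparg fl/- vehicle and 5 in Pparg fl/- RSG cultures, in place of 33 and 27, and its share of all genes is not given here. Leaving out each mouse gave 13 to 26 genes in Pparg+/- vehicle, 11 to 27 in Pparg+/- RSG, 24 to 35 in Pparg fl/- vehicle and 19 to 32 in Pparg fl/- RSG cultures, and leaving out single arrays, an alternative chosen after seeing the data, 22 to 26, 16 to 21, 27 to 35 and 22 to 32. With the mouse as a replicate block the counts were 25, 25, 33 and 28, and this pairing added no call for RSG, genotype or their interactions, which stayed at 0 under every alternative run for them. The probe set with the smallest spread in place of the mean gave 32, 29, 35 and 33, and leaving out cross-hybridizing probe sets (_x_at and _s_at) 26, 23, 33 and 28. Centring the array medians gave 26, 26, 33 and 31 and quantile normalization 27, 30, 34 and 31; centring took the median of all genes with IL-4 from between 0.09 and 0.12 to between -0.01 and 0.04, and the share of all IL-4 calls that were up from between 52.4% and 54.8% to between 41.5% and 44.1%. It also took the median genotype difference in IL-4 RSG cultures from 0.06 to 0.00. The t-test was not run for interactions. Low ratios near the floor, as for Tk1 and Esco2 with IL-4, limit how far a fall can be read. At the floor itself lay 2 probe set values of the 40 genes, both of Esco2.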

Other observations

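Genes of homologous recombination and mismatch repair, which act on DNA during and after its copying, mostly fell with IL-4. Of 16 measured, 14, 9, 14 and 13 were called down in Pparg+/- vehicle, Pparg+/- RSG, Pparg fl/- vehicle and Pparg fl/- RSG cultures, with median changes of -1.82, -1.03, -2.18 and -1.59, and none was called up. Of all genes tested, 6.84%, 6.37%, 8.01% and 7.21% were called down in the same order. Rad54b, a recombination translocase, fell by 5.09 in Pparg+/- vehicle and 4.15 in Pparg fl/- vehicle cultures. Brca1, a scaffold of recombination repair singled out after its values were seen, was the only gene of this list called with RSG: it rose by 1.84 ± 0.29 (adjusted p = 0.0044 in limma) in Pparg+/- IL-4 cultures, where 0.372% of all genes were called. With IL-4 it fell by 2.07 ± 0.29 in Pparg+/- vehicle cultures and had a change of -0.34 ± 0.29, not called, under RSG. The difference between these responses was 1.73 ± 0.41 and missed the threshold (adjusted p = 0.53). In Pparg fl/- IL-4 cultures the RSG change was 1.02 ± 0.29 (adjusted p = 0.76).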
